A study of Rattus norvegicus with 40 samples.

Results

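The genes of DNA replication were followed in rat liver after refeeding, in regeneration and before birth, in 12 groups of arrays. The set was drawn up as 38 genes by their known roles. It and the other gene lists used below were chosen with earlier results of these data known. A gene was represented by the array row that carried its symbol alone, or by the brightest such row where there were several. On these arrays 35 of the 38 genes were found, of 10203 genes tested in all. Mcm3, Mcm4 and Pole2 had no such row and are not analysed here. The 35 genes fall into 8 that license origins, 18 that work at the fork, 5 that supply nucleotides and 4 other genes of S phase (Ung, Ccna2, Chaf1b and Uhrf1).

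All animals were Sprague Dawley rats. Adult rats of 125 to 150 g were fasted for 48 h, injected with DMSO or with rapamycin at 250 µg per 100 g body weight, and 60 min later given food for 3 h. This refed liver grows without dividing, per the labels. Other adult rats received the same doses 1 h before removal of most of the liver (partial hepatectomy) and were killed 24 h later, when hepatocytes divide in step, per the labels. Fetal rats were injected on day 19 of gestation with DMSO or with 50 µg of rapamycin per fetus, and their livers were taken 24 h later, on day 20, when hepatocytes divide out of step. The refed DMSO livers are therefore fed animals given the vehicle and not an untreated liver. Each model and treatment was measured in total RNA and in RNA from polysomes, the messages that carry several ribosomes, with 3 arrays in every adult group and 4 in every fetal group. The titles give only a replicate number. Polysome and total arrays of the same model, treatment and number are taken as 1 liver here, which is an assumption. The protocol describes the polysome preparations as pooled without saying what was pooled, so p-values measure the spread between these arrays, which may be partly technical. The 3 polysome arrays of the hepatectomy DMSO group carry a refeeding time point in 1 label field, and their titles were followed.

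As background, origins are licensed in G1 when ORC, CDC6 and CDT1 load the MCM helicase onto DNA. In S phase MCM10, CDC45 and the GINS complex turn that helicase on, primase and the polymerases copy the strands, and RFC loads the PCNA clamp that holds the polymerases in place. Ribonucleotide reductase, thymidylate synthase, thymidine kinase and dUTPase provide the deoxynucleotides. Rapamycin inhibits mTOR complex 1, a kinase that couples nutrients to growth. Hepatocytes of adult liver rarely replicate their DNA, and most enter S phase together about a day after partial hepatectomy.

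All values are log2 of the deposited array intensity, and differences are on the log2 scale with the standard error of a limma fit. Rose and fell are used only for an adjusted p under 0.05 (Benjamini-Hochberg over the 10860 rows tested). All 35 genes passed the filter on dim rows, but 10 of them had a refed mean below its cut of 6.70, so these could pass only through groups in which they were brighter. They are 5 of the 8 licensing genes (Orc1, Orc6, Cdc6, Mcm5 and Mcm6), Cdc45, Gins1, Rrm2, Ccna2 and Chaf1b. Their changes from refed liver are given as measured, but they had to differ to be tested, so the other 25 genes are also counted alone. Intensities of different genes are not compared, because a probe set's brightness is its own. In these bulk samples more cells in S phase and more message per cell cannot be told apart. Array medians ran from 7.09 to 7.40, and the small number of arrays limits the precision. The hepatocyte markers Alb, Ttr and Apoa1 were bright in all 12 groups, and the summed intensity of the 12 hepatocyte markers ran from 108037 to 169107 over the 40 arrays.

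**Figure D1:**
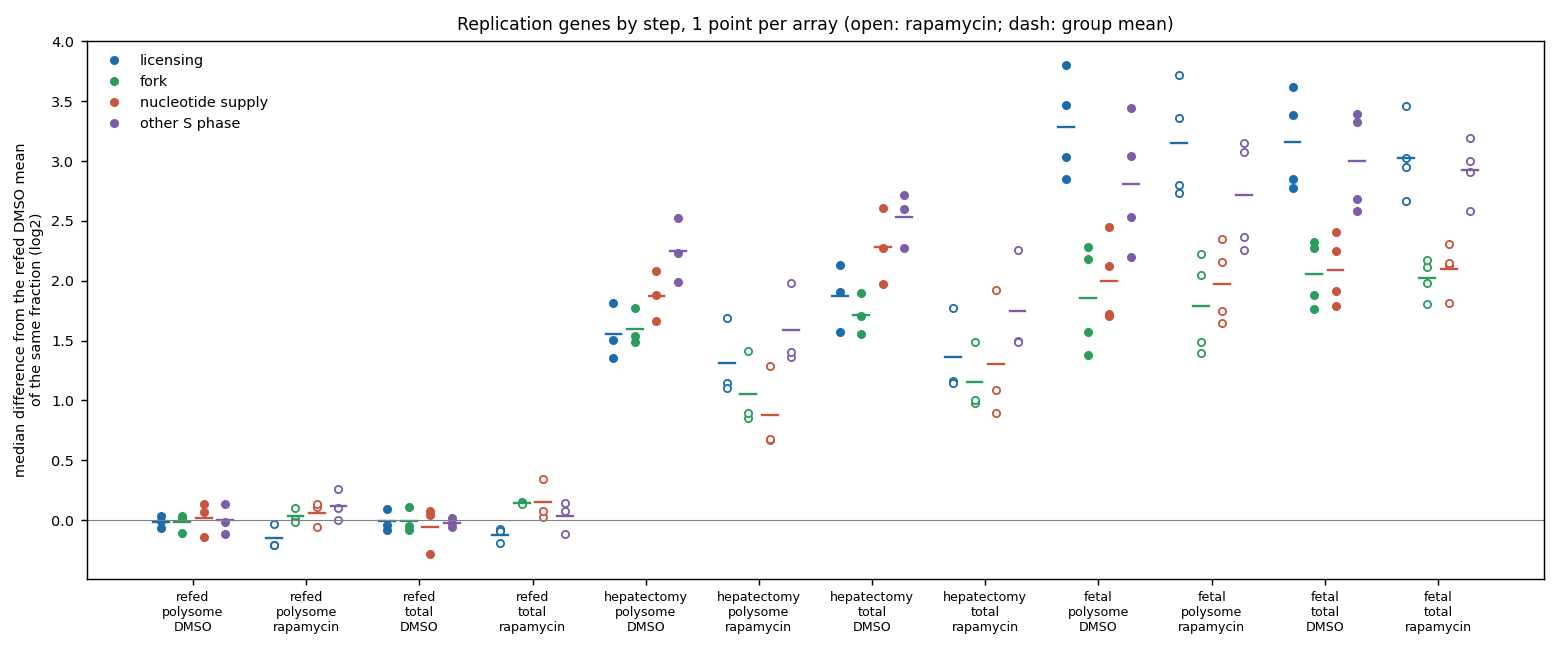
Median difference of each step's genes from the refed DMSO mean of the same fraction (log2, vertical axis) in each of the 12 groups (horizontal axis), 1 point per array, with filled points for DMSO, open points for rapamycin and a dash for the group mean. The refed arrays lie near 0, all hepatectomy and fetal arrays lie above them, licensing has the highest group mean of the 4 steps in each fetal group, and the other S phase genes have it in each hepatectomy group.

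Partial hepatectomy was compared first with refeeding in DMSO total RNA, to show what the replication genes do in dividing adult liver. Of the 25 genes above the filter cut in refed liver 24 rose and none fell, against 12.4% of all rows that rose. Their median change was 1.75, against 0.02 over all rows. With the 10 dimmer genes it was 34 of 35 and 1.88. All 8 licensing genes, all 18 fork genes and all 5 nucleotide genes were among those that rose, with step medians of 1.87, 1.70 and 2.29. These steps include the dimmer genes. The exception was Ung, the uracil DNA glycosylase that also serves base repair outside S phase, at -0.20 ± 0.16 (adjusted p = 0.40).

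Rrm2, the small subunit of ribonucleotide reductase that is made in S phase, showed the largest change. Its total RNA levels were 6.09, 6.34 and 7.43 in the refed DMSO livers and 13.15, 13.34 and 13.07 in the hepatectomy DMSO livers. The groups were far apart, with a change of 6.57 ± 0.38 from a refed level near the filter cut, so its size is a description. Its partner subunit Rrm1 went from 9.19, 9.42 and 8.87 to 11.52, 12.01 and 11.75, a smaller change of 2.60 ± 0.29 from a level that was already well above the filter cut. Rrm2 had a second array row that changed by 5.57, and the second row of Rrm1, with a mean of 5.26 that is below the cut, changed by 0.34.

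Ccna2, cyclin A2, drives S phase and the entry into mitosis. It stood at 5.82, 5.95 and 5.77 in refed liver and at 10.61, 11.32 and 11.02 after hepatectomy, a change of 5.14 ± 0.40, again from below the cut. Among licensing genes above the cut, the helicase subunits Mcm2 and Mcm7 rose by 2.41 ± 0.24 and 1.88 ± 0.27, and the loader Cdt1 by 1.32 ± 0.29. From below the cut the changes were 3.51 ± 0.29 for Mcm5, 3.12 ± 0.26 for Mcm6, 1.86 ± 0.30 for Cdc6, 1.17 ± 0.30 for Orc1 and 0.93 ± 0.22 for Orc6. At the fork Mcm10 (2.96 ± 0.27), the clamp loader subunit Rfc4 (2.80 ± 0.34) and the leading-strand polymerase Pole (2.70 ± 0.31) led among genes above the cut. The GINS subunit Gins1 changed by 2.78 ± 0.30 from below it. Gins2 changed least of the fork genes, by 0.90 ± 0.20. Chaf1b, which places histones behind the fork, changed by 2.60 ± 0.31 from below the cut. Uhrf1, which keeps DNA methylation through replication, rose by 2.46 ± 0.26.

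Further genes of the cell cycle, from lists outside the set, were examined beside it. Of 34 further replication genes tested 24 rose and 1, Orc3, fell, with a median of 0.91. The PCNA-binding protein Pclaf (3.84) and the GINS subunit Gins4 (2.47) were among those that rose. Of 20 genes of G1/S control 14 rose, among them Ccne1 (3.25), E2f1 (2.56) and the inhibitor Cdkn1a (2.03), whereas Ccnd1 was at 0.69 with an adjusted p of 0.23. All 34 mitosis genes rose, with a median of 4.01.

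E2F factors are known activators of replication genes, so the promoters were searched for E2F-type motifs. RefSeq (GRCr8) promoter windows, from 250 bases before to 49 after the start base, were found for 31 of the 35 genes. Orc1, Cdc6, Rrm2 and Ccna2 had no entry. The first start listed for a gene was used, and positions count from the start base as 0. The motifs TTTCCCGC, TTTCGCGC, TTTGCCGC and TTTGGCGC were searched on both strands, and matches on opposite strands that overlap were kept as separate matches. At least 1 match was present in 13 of the 31 replication windows (41.9%), against 2.25% of the 27457 windows of all genes and 3.95% of those of the genes tested. By step it was 5 of 6 licensing genes (Cdt1, Mcm2, Mcm5, Mcm6 and Mcm7), 6 of 18 fork genes, 1 of 4 nucleotide genes (Tyms) and 1 of 3 other genes (Ung). Among 30 mitosis genes 1 window held a match. These letters are a description of the sequence, and binding was not measured.

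Matches from licensing, the fork and nucleotide supply are printed here with the matching bases in capitals, 5′ to 3′. Mcm2 (chr4:122918068-122918133, minus strand), Mcm5 (chr19:13488575-13488640, plus strand), Mcm6 (chr13:42404451-42404516, minus strand) and Gins1 (chr3:160184870-160184935, plus strand) are shown because 2 matches on opposite strands overlap in each. Rfc3 (chr12:5836540-5836605, plus strand) and Tyms (chr9:120776080-120776145, minus strand) are shown as the only clamp loader gene and the only nucleotide gene with a match. The windows of Rfc2, Rfc4, Rfc5 and Pcna held no match, and neither did those of Rrm1, Tk1 and Dut. Each sequence runs in the direction of its gene.
Mcm2: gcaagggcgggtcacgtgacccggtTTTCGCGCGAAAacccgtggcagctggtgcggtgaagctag
Mcm5: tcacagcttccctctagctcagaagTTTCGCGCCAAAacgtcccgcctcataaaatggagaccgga
Mcm6: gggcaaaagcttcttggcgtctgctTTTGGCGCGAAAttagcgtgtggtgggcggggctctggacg
Gins1: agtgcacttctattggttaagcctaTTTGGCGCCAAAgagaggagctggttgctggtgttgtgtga
Rfc3: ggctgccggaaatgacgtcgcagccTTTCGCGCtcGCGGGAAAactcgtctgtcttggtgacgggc
Tyms: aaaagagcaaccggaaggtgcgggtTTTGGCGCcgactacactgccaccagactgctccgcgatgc

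The Mcm2 matches begin at -14 and -10, close to the start, those of Mcm6 at -139 and -135, and those of Gins1 at -25 and -21. The Mcm5 window shown begins its matches at -213 and -209, and a further match, TTTCCCGC, lies at -8. TTTGAA, a form of the element named CHR (cell cycle genes homology region), was in 23 of 30 mitosis windows (76.7%) and in 2 of 31 replication windows (6.5%). Its share was 18.1% of all windows and 11.3% of those of the genes tested. CCAAT was in 18 of 31 replication windows and in 21 of 30 mitosis windows, against 37.7% of all and 38.4% of those of the genes tested. With any listed start counted, 14 of 31 replication genes held an E2F-type match and 3 held TTTGAA.

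Fetal liver was set against refed adult liver in the same way. Of the 25 genes above the filter cut in refed liver 24 rose, against 28.1% of all rows, with a median of 2.05, and Ung fell by 0.53 (standard error 0.15, adjusted p = 0.0032). With the 10 dimmer genes 34 of 35 rose, with a median of 2.41. Rrm2 (6.12 ± 0.35), Ccna2 (4.88 ± 0.37), Mcm5 (4.05 ± 0.27) and Mcm6 (3.88 ± 0.25) changed most, and all of these were below the cut in refed liver. This comparison shares its refed arrays with the one above. The step medians were 3.16 for licensing, 2.04 for the fork and 2.09 for nucleotide supply, and 5 of the 8 licensing genes were below the cut in refed liver. The 3 licensing genes above the cut were at 3.43 (Mcm2), 2.44 (Cdt1) and 2.41 (Mcm7).

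**Figure D2:**
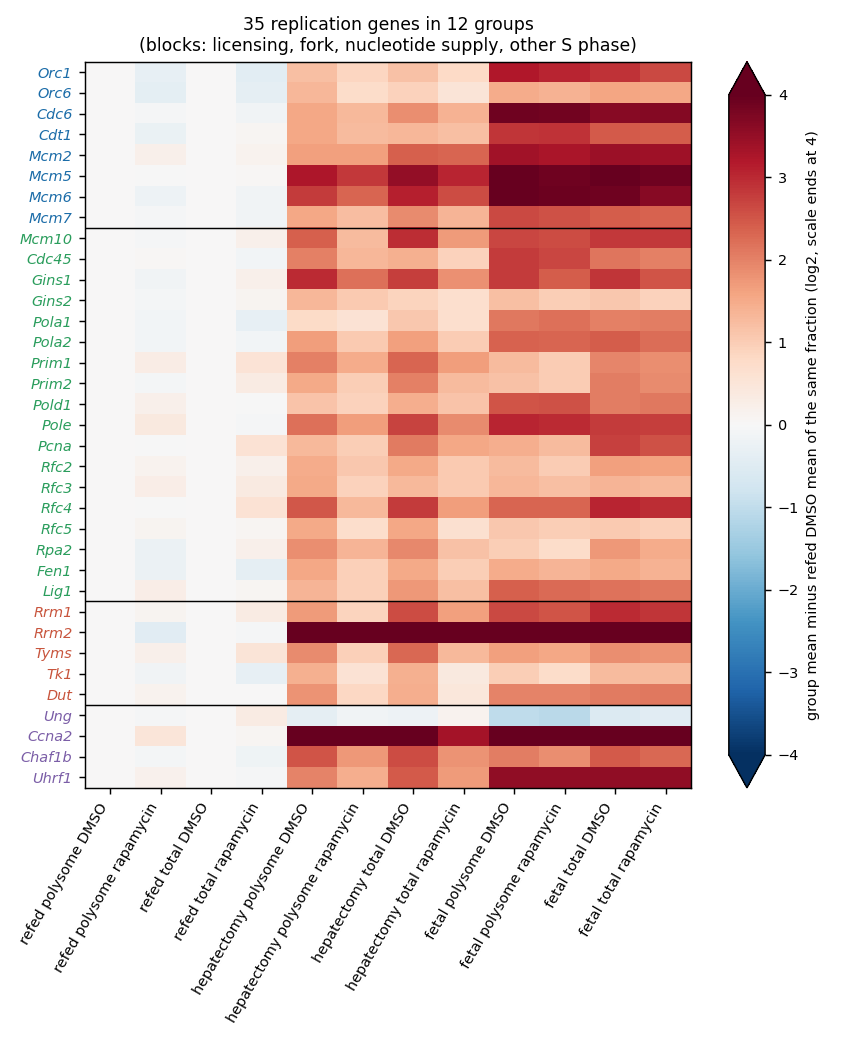
Group means of the 35 replication genes (rows, in blocks by step) in the 12 groups (columns), as the difference from the refed DMSO mean of the same fraction (log2, red higher and blue lower, with the scale ended at 4). Rrm2 and Ccna2 are the darkest rows of the hepatectomy groups, the licensing block is darker in the fetal than in the hepatectomy groups, and Ung is the row without a rise.

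Both dividing livers were then compared directly, fetal minus hepatectomy in DMSO total RNA. In fetal liver 13 of 35 genes were higher and none was lower, against 19.9% of all rows that were higher, and the median was 0.25. Of the 25 genes above the filter cut in refed liver 8 were higher, with a median of 0.17. Of the 8 licensing genes 6 were among the 13, with a step median of 0.89, and Orc1, Orc6, Cdc6 and Mcm6 of these were below the cut in refed liver. For the fork the count was 5 of 18 and the median 0.12, and for nucleotide supply 1 of 5 and -0.15. Without the first hepatectomy total DMSO array the count was 8, against 16.3% of all rows, and 4 of them were licensing genes.

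Cdc6, the loader that brings CDT1 and the helicase to ORC, differed most. Its total RNA levels were 8.07, 8.67 and 8.50 after hepatectomy and 10.66, 10.52, 9.87 and 9.77 in fetal liver. No value overlapped, and the difference was 1.79 ± 0.28 or 3.46-fold (adjusted p = 3.3e-06). Orc1, the ATPase subunit of the origin recognition complex, was higher by 1.72 ± 0.28, Cdt1 by 1.12 ± 0.27, Mcm2 by 1.02 ± 0.22, Mcm6 by 0.76 ± 0.25 and Orc6 by 0.65 ± 0.21. Mcm5 (0.54 ± 0.27, adjusted p = 0.12) and Mcm7 (0.53 ± 0.26, adjusted p = 0.10) did not pass.

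At the fork both polymerase alpha subunits were higher in fetal liver, Pola1 by 0.94 ± 0.26 and Pola2 by 0.78 ± 0.20, with Cdc45 at 0.71 ± 0.19, Pcna at 0.68 ± 0.26 and the polymerase delta subunit Pold1 at 0.60 ± 0.20. The 5 clamp loader and single-strand binding genes Rfc2, Rfc3, Rfc4, Rfc5 and Rpa2 lay between -0.48 and 0.25 and none passed. Uhrf1 was higher by 1.08 ± 0.24 and Dut, the dUTPase, by 0.63 ± 0.21. Rrm2 was at -0.46 ± 0.35 (adjusted p = 0.34), Tyms at -0.43 ± 0.24 (adjusted p = 0.17) and Ccna2 at -0.26 ± 0.37 (adjusted p = 0.62). Under cyclic loess scaling 12 genes were higher and Ung was lower, by 0.33. With 1 array left out at a time, Pcna passed in only 1 of 7 fits, Mcm6 in 4, Pold1 and Dut in 5 and Orc6 in 6. Cdc6, Orc1, Cdt1, Mcm2, Pola1, Pola2, Cdc45 and Uhrf1 passed in all 7.

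**Figure D3:**
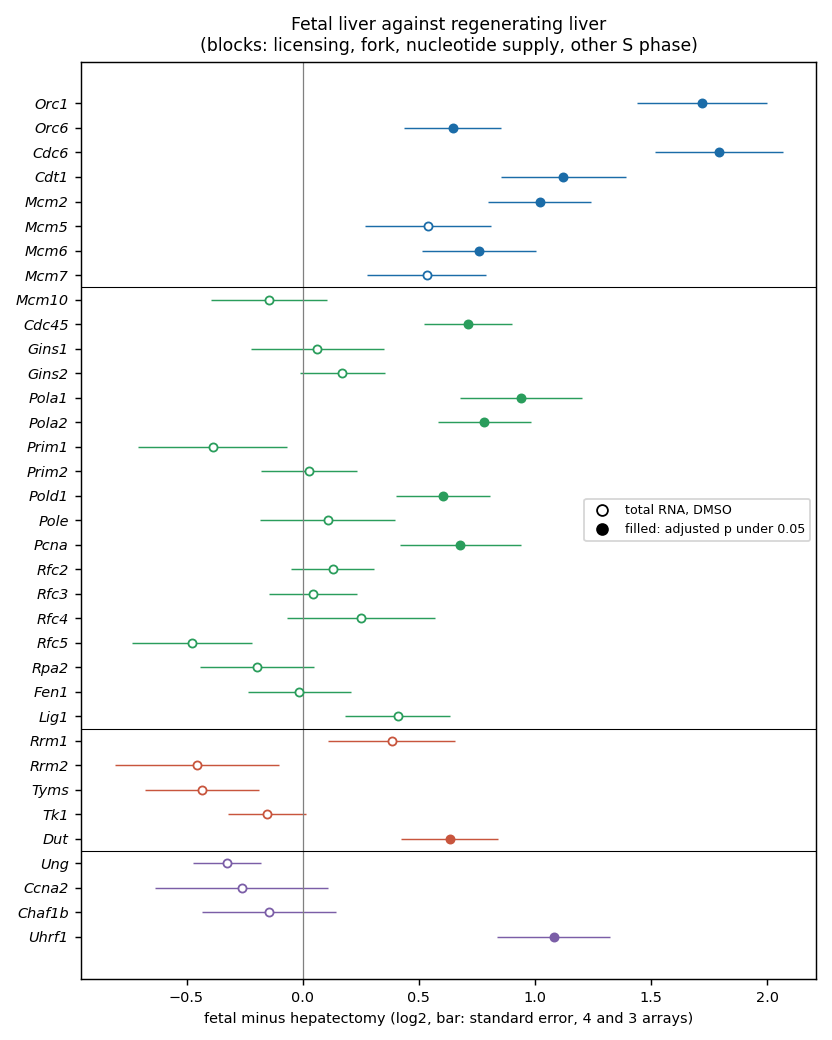
Difference of fetal from hepatectomy liver in DMSO total RNA (log2, horizontal axis, with the standard error as a bar) for each of the 35 genes (vertical axis, in blocks by step), filled where the adjusted p was under 0.05. All 8 licensing points lie to the right of 0, between 0.53 and 1.79, and the nucleotide block lies on both sides of it.

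Fetal liver makes blood as well as hepatocytes. The summed intensity of the erythroid markers (11 of 13 listed were measured) was 53285 to 80885 in fetal total DMSO arrays, against 6519 to 9962 in refed and 6855 to 9817 in hepatectomy total DMSO arrays. The 6 granulocyte markers summed to 15166 to 18944 in fetal total DMSO arrays and to 531 to 618 in hepatectomy ones. The part of these cells in the fetal values of the replication genes was not tested.

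The 4 fetal livers of each treatment also differed among themselves. Livers of 1 number in the DMSO and rapamycin groups are different livers. In polysome RNA the median of the 35 genes over refed DMSO was 2.71 and 2.89 in DMSO livers 1 and 2, and 2.04 and 1.87 in livers 3 and 4. With rapamycin the values were 2.61 and 2.67 in livers 1 and 2, and 1.96 and 1.91 in livers 3 and 4. Livers 1 and 2 were thus higher in both treatments, and arrays of 1 number deviated from their group means together (r = 0.43 to 0.75 over 8 pairs). The erythroid sum moved in the same way, at 73421 and 75531 in polysome DMSO livers 1 and 2 and at 55986 and 49693 in livers 3 and 4, and the part it has in the replication values was not tested. Ccna2 showed the same order in total RNA, at 11.41 and 11.41 in DMSO livers 1 and 2 and at 10.03 and 10.04 in livers 3 and 4. Mcm10 did not split in this way, at 9.64, 9.86, 9.67 and 9.74.

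Rapamycin was compared with DMSO in each model and fraction, to ask what mTOR inhibition does to these messages. After hepatectomy 6 of the 35 genes fell in polysome RNA, against 4.10% of all rows, and 7 fell in total RNA, against 3.54%, and none rose in either. The medians were -0.54 and -0.56, against -0.01 over all rows in both. Of the 25 genes above the filter cut in refed liver 4 fell in polysome and 5 in total RNA. All 3 rapamycin arrays lay below all 3 DMSO arrays for 14 of 35 genes in polysome RNA, against 15.6% of all rows, and for 16 in total RNA, against 17.8%.

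Among the steps nucleotide supply had the lowest medians, -0.92 for polysome and -1.01 for total RNA, with 3 and 4 of its 5 genes called. The fourth call in total RNA, Rrm1, was lost under several other settings. Differences between steps were not tested. For the 18 fork genes the medians were -0.54 and -0.59, with 2 called in each fraction. For the 8 licensing genes they were -0.31 and -0.43, with none called. For mitosis genes the medians were -1.45 and -1.67, with 24 and 30 of 34 called. Among the 34 further replication genes 6 fell in polysome RNA and 7 in total RNA, with Gins4 at -1.12 and -0.99 and the polymerase delta subunit Pold2 at -0.80 and -0.78.

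**Figure D4:**
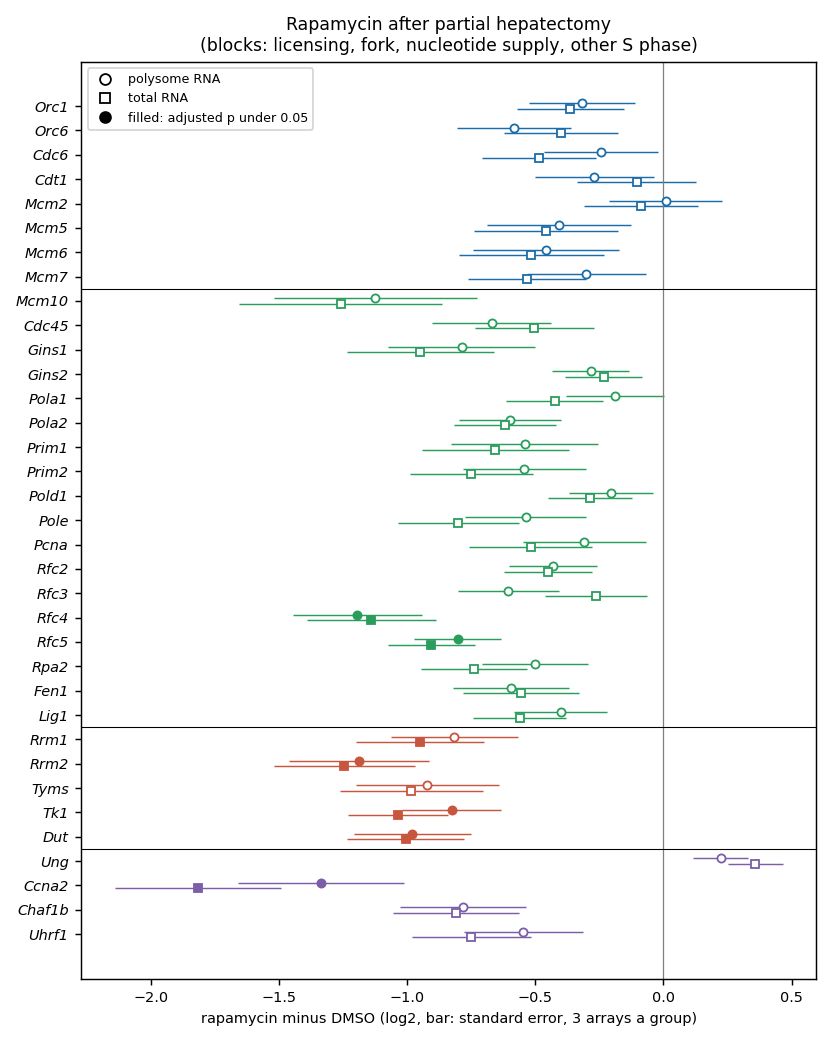
Rapamycin minus DMSO after hepatectomy (log2, horizontal axis, with the standard error as a bar) for each of the 35 genes (vertical axis, in blocks by step) in polysome RNA (circles) and total RNA (squares), filled where the adjusted p was under 0.05. The nucleotide block lies between -1.24 and -0.82, Ccna2 is lowest at -1.82 in total RNA, Mcm2 lies at 0.01 and -0.09, and Ung lies to the right of 0.

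Of the ribonucleotide reductase subunits, Rrm2 in polysome RNA was 12.93, 13.10 and 12.50 with DMSO and 11.40, 12.32 and 11.24 with rapamycin. In total RNA it was 13.15, 13.34 and 13.07 with DMSO and 11.61, 12.45 and 11.77 with rapamycin. No rapamycin liver reached a DMSO liver in either fraction, and the changes were -1.19 ± 0.27 (adjusted p = 0.033) and -1.24 ± 0.27 (adjusted p = 0.030).

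Rrm1, the large subunit, changed least of the 5 in polysome RNA, at -0.82 ± 0.25 (adjusted p = 0.069). It was 11.18, 11.60 and 10.82 with DMSO and 10.17, 10.79 and 10.18 with rapamycin, so the groups nearly met without overlap. In total RNA it fell by 0.95 (standard error 0.25, adjusted p = 0.049), a call lost with no filter (adjusted p = 0.058), cyclic loess (0.059), no intensity trend (0.051) and the fit on all 40 arrays (0.088). Dut in polysome RNA was 9.64, 10.33 and 10.21 with DMSO and 9.05, 9.34 and 8.84 with rapamycin, a change of -0.98 ± 0.23 (adjusted p = 0.033). Tk1, the thymidine kinase of the salvage route, fell by 0.83 in polysome RNA and by 1.04 in total RNA, and Tyms, thymidylate synthase, was at -0.92 ± 0.28 (adjusted p = 0.069) and -0.98 ± 0.28 (adjusted p = 0.063).

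At the fork Rfc4 changed most. In polysome RNA it was 9.75, 9.69 and 9.43 with DMSO and 8.20, 8.63 and 8.45 with rapamycin. The groups were well apart, with a change of -1.19 ± 0.25 (adjusted p = 0.026). In total RNA it lay between 8.51 and 9.31 with DMSO and between 7.46 and 8.42 with rapamycin, a change of -1.14 ± 0.25 (adjusted p = 0.030). Rfc5, another subunit of the loader, fell by 0.80 in polysome RNA and by 0.91 in total RNA (adjusted p = 0.026 and 0.021).

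Mcm10 had a large but variable change of -1.12 ± 0.40 (adjusted p = 0.10). Its polysome levels were 9.26, 9.49 and 9.88 with DMSO and 7.82, 9.25 and 8.19 with rapamycin, so that the second rapamycin liver came close to the DMSO livers. Pola1, the catalytic subunit of primase-polymerase alpha, changed least of the fork genes at -0.19 ± 0.19, with 8.38, 8.56 and 8.01 against 7.80, 8.41 and 8.16 in overlapping groups. Pcna was 11.11, 11.33 and 10.74 with DMSO and 10.57, 11.21 and 10.46 with rapamycin, also overlapping, at -0.31 ± 0.24 (adjusted p = 0.44).

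Licensing genes gave no call. Mcm2 in polysome RNA was 9.80, 9.77 and 9.24 with DMSO and 9.52, 10.07 and 9.25 with rapamycin, a difference of 0.01 with an interval (95%) of -0.47 to 0.49. In total RNA the interval of Mcm2 was -0.57 to 0.40. Orc6, an origin recognition subunit, was 7.93, 8.52 and 8.13 against 7.45, 8.08 and 7.30, at -0.58 ± 0.22 (adjusted p = 0.13), and Mcm6 was 9.40, 9.70 and 9.01 against 8.64, 9.49 and 8.60, at -0.46 ± 0.28 (adjusted p = 0.33). Both pairs of groups overlapped.

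Of the other S phase genes, Ccna2 in polysome RNA was 10.93, 11.52 and 11.11 with DMSO and 9.78, 10.45 and 9.32 with rapamycin. In total RNA it was 10.61, 11.32 and 11.02 against 9.01, 9.84 and 8.65. The groups were apart in both fractions, with changes of -1.34 ± 0.32 (adjusted p = 0.037) and -1.82 ± 0.32 (adjusted p = 0.020). Chaf1b was 8.89, 9.25 and 8.78 against 8.09, 8.64 and 7.85 in polysome RNA, at -0.78 ± 0.25 (adjusted p = 0.076). Ung was 10.70, 10.74 and 10.81 against 10.93, 11.14 and 10.85, higher with rapamycin in each array but by 0.22 ± 0.11 (adjusted p = 0.21), and under cyclic loess scaling it rose by 0.43 in total RNA.

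The calls after hepatectomy rested on few arrays. Without rapamycin array 2 the number of genes that fell went from 6 to 12 in polysome RNA, against 2.95% of all rows, and from 7 to 18 in total RNA, against 3.98%. Without DMSO array 2, DMSO array 3, rapamycin array 1 or rapamycin array 3 it was 0 in both fractions, and without DMSO array 1 it was 6 and 9, against 9.75% and 5.41%. A fit over all 40 arrays called 3 genes in polysome RNA (Mcm10, Tk1 and Dut) and 5 in total RNA, against 1.53% and 1.76%. Before adjustment 22 and 24 of the 35 genes had p under 0.05, against 25.5% and 23.6% of all rows. All medians from fits with 1 array left out were negative, from -0.76 to -0.41 in polysome and from -0.79 to -0.46 in total RNA.

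The second rapamycin liver held the highest value of its group for 35 of 35 genes in both fractions, and the second DMSO liver did so for 29 in polysome and 32 in total RNA. The median of the 35 genes over refed DMSO was 0.94, 1.47 and 0.97 in the 3 rapamycin livers and 1.58, 1.89 and 1.50 in the DMSO livers in polysome RNA, so rapamycin livers stayed below every DMSO liver in this median. In total RNA the second rapamycin liver, at 1.74, lay within the DMSO range of 1.67 to 2.12. With both arrays of that liver left out, a choice made after seeing the data, 18 genes fell in polysome RNA, against 3.31% of all rows, and 23 in total RNA, against 3.84%.

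Markers of other cells moved with rapamycin after hepatectomy. The endothelial markers (7 of 9 measured) summed to 6042 to 7848 with DMSO and 8161 to 9219 with rapamycin in polysome RNA, and to 8246 to 9994 and 10625 to 12089 in total RNA. The lymphocyte markers (6 of 7 measured) summed to 4707 to 5318 and 6339 to 7207 in polysome RNA, and to 5188 to 5857 and 6235 to 8472 in total RNA. The 8 stellate markers summed to 3380 to 5255 and 5302 to 5800 in polysome RNA, and to 6271 to 7799 and 8832 to 9474 in total RNA. In total RNA the bile duct markers (4 of 5 measured) were at 704 to 786 and 828 to 887, and the megakaryocyte markers (3 of 6 measured) at 373 to 404 and 412 to 463. These sums did not overlap between treatments. The macrophage sums did, at 12094 to 16444 and 16353 to 18980 in polysome RNA, although 6 of its 10 markers were higher in all rapamycin arrays there. The share of all rows that were higher in this way is not set beside that count. It is therefore not read as a result about these cells. Hepatocyte markers overlapped, at 125649 to 146084 and 136084 to 141038 in polysome RNA, and so did the erythroid, granulocyte and fetal hepatocyte sums in both fractions. The part of these cells in the lower replication values was not tested.

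The rise after hepatectomy was still present under rapamycin. Hepatectomy minus refed, both with rapamycin in total RNA, gave 20 of the 25 genes above the filter cut in refed liver that rose, against 3.90% of all rows, with a median of 1.09. Over all 35 it was 30, with a median of 1.13. The counts by step include the dimmer genes. All 8 licensing genes rose, with a step median of 1.50, but 5 of them were below the cut in refed liver. Of the 3 above it Mcm2 rose by 2.18 ± 0.24, Mcm7 by 1.49 ± 0.27 and Cdt1 by 1.13 ± 0.29. From below it Mcm5 changed by 3.01 ± 0.29 and Mcm6 by 2.76 ± 0.26. At the fork 16 of 18 rose with a median of 1.07, and in nucleotide supply 3 of 5 with a median of 0.80. Gins2 (0.56 ± 0.20), Rfc5 (0.56 ± 0.28), Tyms (0.80 ± 0.26) and Dut (0.45 ± 0.22) did not pass here, and all 4 had risen with DMSO. Rrm2 was still higher by 5.36 ± 0.38 and Ccna2 by 3.25 ± 0.40, both among the genes below the cut in refed liver. Without rapamycin total array 2 of the hepatectomy group 19 of the 35 genes rose, against 2.77% of all rows.

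In refed liver rapamycin gave no call in either fraction, and 0% of all rows were called. The gene medians were -0.04 in polysome RNA and 0.06 in total RNA, and 3 and 6 of 35 genes had p under 0.05 before adjustment. The share of all rows under that unadjusted cut is not set beside these counts, so they are not read as a result about these genes. Without DMSO total array 2, however, 6 genes were called in total RNA, with Pcna, Rfc3, Tyms and Ung higher, against 12.1% of all rows, and Orc6 and Pola1 lower, against 4.12%. The members' shares were thus near those of all rows. That array held the highest Pcna level, at 9.34 against 8.52 and 8.54 in the other DMSO arrays and 9.23, 9.63 and 9.24 with rapamycin.

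In fetal liver rapamycin gave no call either, again with 0% of all rows called in each fraction, and no gene had p under 0.05 before adjustment. The medians were -0.09 in polysome and -0.06 in total RNA. For Tk1 in total RNA the interval (95%) was -0.29 to 0.29, for Rrm2 -0.49 to 0.38, for Mcm2 -0.52 to 0.44 and for Ccna2 -1.02 to 0.77. These intervals are from the fit without the number as a block, so they include the spread between numbers. In number order, Ccna2 in total RNA was 11.41, 11.41, 10.03 and 10.04 with DMSO and 11.01, 11.18, 10.33 and 9.85 with rapamycin. Its interval reaches a fall of 1 log2 unit in that unblocked fit only, and a blocked interval is not given here. Rrm2 in fetal total RNA was 12.97, 13.04, 12.48 and 12.44 with DMSO and 12.51, 12.93, 12.60 and 12.67 with rapamycin, in overlapping groups.

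Whether the rapamycin response differed between models was tested directly, over all 40 arrays. The difference of the responses, hepatectomy minus refed, gave no call among the 35 genes in polysome RNA, where 0.110% of all rows were lower, or in total RNA, where 0.488% were. Before adjustment 12 genes had p under 0.05 in polysome RNA, against 4.75% of all rows, and 16 in total RNA, against 15.2%. The medians were -0.57 and -0.64. Tyms (-1.49 ± 0.37, adjusted p = 0.054) and Mcm10 (-1.45 ± 0.38, adjusted p = 0.059) came closest to the threshold, both in total RNA. Without refed total DMSO array 2 the total RNA count was 8, against 8.25% of all rows, without hepatectomy total rapamycin array 2 it was 6, against 1.72%, without hepatectomy total DMSO array 1 it was 2, against 0.884%, and without refed total rapamycin array 1 it was 1. In polysome RNA it was 1 without hepatectomy polysome rapamycin array 2.

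Against fetal liver, with hepatectomy minus fetal, no gene was called in either fraction, where 0.00921% of all rows were lower in each. Before adjustment 8 genes had p under 0.05 in polysome RNA, against 6.53% of all rows, and 10 in total RNA, against 6.11%. Because fetal arrays of 1 number deviated together, the number was also taken as a block among the fetal arrays alone, a choice made after seeing the data. Then Ccna2 (-1.69 ± 0.31, adjusted p = 0.0053), Tk1 (-1.03 ± 0.23, adjusted p = 0.020) and Dut (-1.02 ± 0.23, adjusted p = 0.023) responded more strongly after hepatectomy in total RNA, 3 of 35 against 0.838% of all rows. Without that block no gene was called while all arrays were kept. Leaving out rapamycin array 2 of the hepatectomy group gave 3 in total RNA, against 0.635% of all rows, and 1 in polysome RNA. Leaving out DMSO array 1 gave 1 in total RNA.

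The rapamycin response of polysome RNA was also compared with that of total RNA within each model, to ask whether loading onto ribosomes changed. No gene and no row was called in any model. Before adjustment 1 of 35 genes in refed liver and 0 in the hepatectomy and fetal livers had p under 0.05, and after hepatectomy the differences ran from -0.34 to 0.48 with a median of 0.08. This fit did not pair the polysome and total arrays of 1 liver, so its intervals include the spread between livers. The interval (95%) of Ccna2 after hepatectomy ran from -0.52 to 1.48 in it, so this unpaired fit does not exclude sizeable differences. A fit with the liver as a block is not reported here for this comparison.

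**Figure D5:**
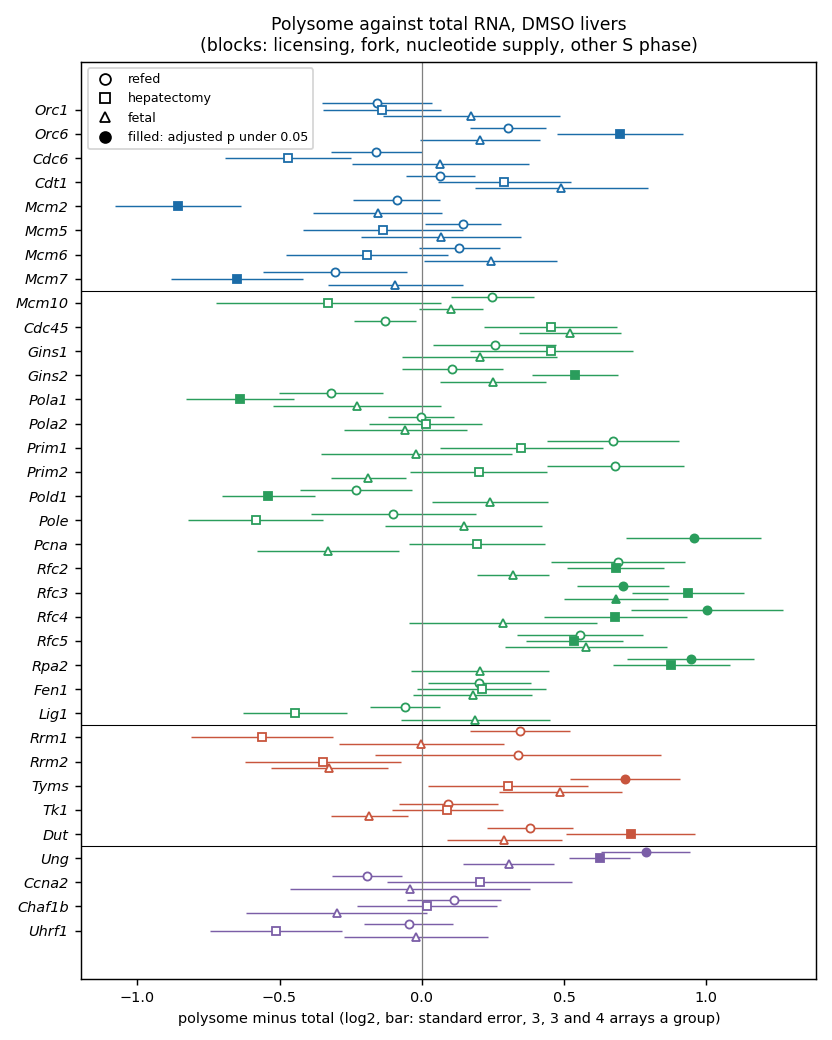
Polysome minus total RNA in DMSO livers (log2, horizontal axis, with the standard error as a bar) for each of the 35 genes (vertical axis, in blocks by step) in refed (circles), hepatectomy (squares) and fetal liver (triangles), filled where the adjusted p was under 0.05. The clamp loader genes and Rpa2 lie to the right of 0 in all 3 models, and Mcm2, Mcm7, Pola1 and Pold1 lie to the left of 0 after hepatectomy.

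The balance of polysome over total RNA without rapamycin was also compared, gene by gene. Both fractions were scaled on their own arrays, so the values compare genes within a model and not whole-liver translation. Cyclic loess scaling moved the median of all rows in refed liver from 0.10 to 0.00. It moved the share of the called rows that were higher from 79.2% to 61.1% in refed liver, from 65.8% to 54.5% after hepatectomy and from 55.9% to 45.5% in fetal liver.

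After hepatectomy 9 genes were higher in polysome RNA, against 28.8% of all rows, and 4 were lower, against 15.0%. The share of higher genes is thus near that of all rows. Higher were the clamp loader genes Rfc3 (0.94 ± 0.20), Rfc2 (0.68 ± 0.17), Rfc4 (0.68 ± 0.25) and Rfc5 (0.54 ± 0.17), the single-strand binding subunit Rpa2 (0.88 ± 0.21), Gins2 (0.54 ± 0.15), Dut (0.73 ± 0.23), Orc6 (0.70 ± 0.22) and Ung (0.62 ± 0.11). Mcm2 was lower by 0.86 ± 0.22, Mcm7 by 0.65 ± 0.23, Pola1 by 0.64 ± 0.19 and Pold1 by 0.54 ± 0.16. Mcm2 was 9.80, 9.77 and 9.24 in polysome RNA and 10.35, 10.59 and 10.44 in total RNA. Its scaled value was thus lower in every polysome array than in every total array. Under cyclic loess scaling 7 genes were higher and 8 lower, with Rfc4 (0.61) and Rfc5 (0.41) no longer past the threshold.

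Polysome and total arrays of 1 liver deviated from their group means together (r = 0.51 to 0.72 after hepatectomy, 0.46 to 0.82 in refed and 0.33 to 0.69 in fetal liver, over 6, 6 and 8 pairs). With the liver as a block 15 genes were higher after hepatectomy, against 39.1% of all rows, and 11 lower, against 22.0%. The 11 lower genes then included Pole, Lig1, Rrm1, Uhrf1 and Cdc6. Without polysome DMSO array 3 the unblocked count was 6 in place of 13, with 5 higher, against 22.7% of all rows, and 1 lower, against 10.8%.

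In refed liver 6 genes were higher in polysome RNA, against 19.5% of all rows, and none was lower. They were Rfc4 (1.00 ± 0.27), Pcna (0.95 ± 0.24), Rpa2 (0.94 ± 0.22), Ung (0.79 ± 0.16), Tyms (0.71 ± 0.19) and Rfc3 (0.71 ± 0.16). With the liver as a block 12 were higher, against 31.7% of all rows. Without total DMSO array 2 there were 9 higher, against 24.5% of all rows, and 1 lower, against 8.45%.

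In fetal liver Rfc3 alone passed, at 0.68 ± 0.18 (adjusted p = 0.021), against 8.10% of all rows that were higher. With the liver as a block 5 genes were higher, against 15.9%, namely Cdt1, Cdc45, Rfc3, Rfc5 and Tyms. Rfc3 was thus higher in polysome RNA in each of the 3 models. Without polysome DMSO array 1 or 2, or total DMSO array 3, no gene passed in the unblocked fit, and without polysome DMSO array 4 or total DMSO array 1 there were 2.

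The difference of the 2 balances, fetal minus hepatectomy, called no gene, and 2.83% of all rows were called in either direction. With the liver as a block 6 of 35 genes were higher, against 5.35% of all rows. These were Pold1 (0.78 ± 0.15), Pole (0.73 ± 0.19), Mcm2 (0.70 ± 0.17), the DNA ligase Lig1 (0.63 ± 0.12), Rrm1 (0.56 ± 0.16) and Mcm7 (0.55 ± 0.16), each with an adjusted p from the blocked limma fit between 0.0030 and 0.028. Their balance in the hepatectomy livers lay between -0.86 and -0.44, and in the fetal livers they lay between -0.15 and 0.24.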

How the data were processed

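RNA was hybridized to Affymetrix Rat Gene 1.0 ST arrays. The authors deposited intensity values on a linear scale, processed with RMA per the submitters' processing notes, with no version given in the sources used here. Of 28826 rows on 40 arrays 15209 carried 1 gene symbol and 306 several. Values were taken to log2 without a pseudocount. Named rows with a mean at or above the 30th percentile (6.70) were tested, 10860 in all. Tests used limma 3.58.1 in R 4.3.3 with an intensity trend and Benjamini-Hochberg adjustment over all rows tested, at 0.05. Rapamycin and fraction comparisons were fitted on the arrays of 1 model, and comparisons across models on all 40 arrays. Symbols of all 35 genes matched RefSeq.

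The members and the other gene lists were chosen with earlier results of these data known. All members may be named. Array values are given for the 2 largest and the smallest hepatectomy polysome responses to rapamycin in each step, and for Pcna and Mcm2; values of further genes were chosen after they were seen. Same-numbered DMSO and rapamycin arrays deviated together in fetal liver, where blocking on the number changed no count of members in the fetal rapamycin comparisons. Alternatives were no filter, cyclic loess, no trend, averaged rows, another fit, blocks and leaving out each array. On simulated data made from the hepatectomy polysome comparison (10860 rows), 3 of 50 rows changed by 0.5 were recovered, 32 of 50 changed by 1, 46 changed by 1.5 and 49 changed by 2. The 2 closest arrays differed by a root mean square of 0.23, so no array was a copy of another.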

Additional observations from a re-analysis of the deposited data

Results flagged for a closer look

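Among the 140 sets of 4 fetal values (35 genes in 4 groups) 2 had an array far from the other 3, where chance gives about 1 in 20. Orc1 in fetal total RNA with rapamycin was 9.49 in liver 2 and 8.74, 8.65 and 8.77 in the other livers, a gap of 0.8585 of the whole range. Gins2 in fetal polysome RNA with rapamycin was 8.53 in liver 2 and 8.25, 8.28 and 8.26 in the others, a gap of 0.8877 of the range. Groups of 3 arrays were not examined in this way.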

How the results depend on the processing

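The number of replication genes past the threshold stayed within 1.5 times its first value under no filter, cyclic loess, no trend and averaged rows in all 21 comparisons. A fit on all 40 arrays gave 3 in place of 6 for rapamycin after hepatectomy in polysome RNA, 8 in place of 13 for polysome minus total RNA after hepatectomy and 2 in place of 1 in fetal liver. The replicate block gave 12 for polysome minus total RNA in refed liver, 26 after hepatectomy, 5 in fetal liver and 6 for fetal minus hepatectomy.

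For DMSO and rapamycin arrays of 1 number the deviations over all rows correlated between -0.065 and 0.28 after hepatectomy and between -0.62 and 0.39 in refed liver. After hepatectomy, number 2 was nevertheless the highest for most replication genes in both treatments. Whether arrays of 1 number share more than that number was not tested. Blocking on the number gave 22 genes for rapamycin after hepatectomy in polysome RNA and 25 in total RNA. For the difference of responses this block gave 6 and 13 for hepatectomy minus refed, and 5 and 8 for hepatectomy minus fetal, in polysome and total RNA. The shares of all rows under this block are not set beside these counts. They are therefore not read as a result about the replication genes. The block in the fetal arrays alone gave 3 in total RNA. With both arrays of hepatectomy rapamycin liver 2 left out the counts were 18 and 23 for rapamycin after hepatectomy, 1 and 6 for hepatectomy minus refed and 1 and 3 for hepatectomy minus fetal.

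With 1 array left out the counts ran from 0 to 12 for rapamycin after hepatectomy in polysome RNA and from 0 to 18 in total RNA, from 0 to 6 in refed total RNA, from 0 to 1 and 0 to 8 for hepatectomy minus refed responses, and from 0 to 1 and 0 to 3 for hepatectomy minus fetal responses. They ran from 4 to 10, 6 to 11 and 0 to 2 for polysome minus total RNA in refed, hepatectomy and fetal liver, from 8 to 13 for fetal minus hepatectomy, and from 19 to 29 for hepatectomy minus refed with rapamycin. For hepatectomy minus refed with DMSO the count was 34 in each such fit. No called gene changed sign. Cyclic loess moved the share of called rows that were higher with rapamycin after hepatectomy in total RNA from 29.4% to 41.4%, and that of the fetal minus hepatectomy polysome balance from 42.0% to 58.3%. It moved 22 of 420 group levels by more than 1 SD. The causes were not tested.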
